A study of Homo sapiens with 4 samples.

Results

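RNA levels of 36 genes that carry glucose into the cell and through glycolysis were compared between WT and ZCCHC4 KO1 cells. The genes were chosen by name, as the glucose transporters of the SLC2A family, the enzymes from hexokinase to lactate dehydrogenase, the PFKFB enzymes, the lactate transporters, and the kinases and E1 subunits of pyruvate dehydrogenase. This choice was made with earlier results of these data known, so counts of members set against all genes are descriptions. All 36 were listed in the table of 16658 genes. The study asked how loss of ZCCHC4, a methyltransferase that places N6-methyladenosine on ribosomal RNA, acts on liver cancer cells. The RNA-seq covered 4 libraries, 2 from WT and 2 from ZCCHC4 KO1 cells, all labelled HepG2, a line established from a human liver tumor. ZCCHC4 KO1 was 1 CRISPR/Cas9 knockout line, so loss of ZCCHC4 and other properties of that line cannot be told apart. Both groups were without drug. The labels do not say that the libraries of a group came from separate cultures, so the p-values measure only the spread between these libraries.

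Glycolysis splits glucose into pyruvate in the cytosol. Transporters of the SLC2A family bring glucose in, hexokinase traps it as glucose 6-phosphate, and phosphofructokinase commits it to the pathway. Pyruvate is then either reduced to lactate by lactate dehydrogenase and exported, or carried into mitochondria and oxidised by pyruvate dehydrogenase, which PDK kinases inhibit by phosphorylating its E1 alpha subunit. Liver tumor cells commonly draw on the isoforms of these enzymes that resting hepatocytes use little.

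The values were FPKM, that is, fragment numbers scaled by transcript length and by library, as deposited, so that levels could be set side by side between genes. Their depth is unknown. Differences were tested with limma on log2(FPKM + 1) over the 10726 genes with 2 or more libraries at an FPKM of 1 or above, and adjusted p-values are Benjamini-Hochberg values over those 10726 genes. At low FPKM this scale compresses differences. ZCCHC4 itself was at 7.22 and 5.44 FPKM in WT against 1.08 and 2.29 FPKM in ZCCHC4 KO1, and its log2 difference was -1.48 (SE 0.287, limma adjusted p = 0.0448). Most hepatocyte genes were low in these libraries, but not all. Of a list of 29 hepatocyte genes, 18 were listed, 3 were at an FPKM of 1 or above in each WT library, and AFP, HNF4A and SERPINA1 were at 0.08 FPKM or less in every library. The summed FPKM of the hepatocyte list was 283.63 and 252.19 in WT against 133.22 and 186.3 in ZCCHC4 KO1. At least 1 gene of the list was thus well above 1 FPKM. The low AFP, HNF4A and SERPINA1 values do not bear out the HepG2 label, and the identity of the cells was not checked. The part of cell identity in the results was not tested.

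Of the 36 members, 33 were tested, and the other three, SLC2A4, SLC2A10 and SLC2A12, were at 0.40 FPKM or less in every library. SLC2A3 passed the filter through WT alone and SLC2A6 through ZCCHC4 KO1 alone. At an adjusted p below 0.05, 5 members fell in ZCCHC4 KO1, namely SLC2A3, ENO3, PDHA1, PDK3 and PFKL, against 4.48% of all tested genes. At that threshold 0 members rose, against 1.5% of all tested genes. At an unadjusted p below 0.05 limma gave 1 member higher, against 8.96% of all tested genes, and 9 lower, against 13.9%. The 1 member higher was SLC2A6, and SLC2A3 was among the 9 lower. Each of these was tested only through the group where it was high, so its call is no support. At an adjusted p below 0.001 with a change of at least 2-fold, SLC2A3 alone fell, against 0.0559% of all tested genes, and 0 members rose, against 0.0186%. In 14 tested members both ZCCHC4 KO1 values were lower than both WT values, against 28.5% of all tested genes, and in 3 tested members both were higher, against 23.1%. The former count was 10 after scaling by median ratios, 16 after quantile normalization and 20 with the trend on GC content removed, against 24.2%, 25.6% and 33.2% of all tested genes. The median log2 difference was -0.12 over the 33 tested members and -0.03 over all tested genes. Summed over members, FPKM made up 3.18 and 3.39% of each WT library and 3.13 and 2.86% of each ZCCHC4 KO1 library. The plot of levels by library shows that GAPDH was the most abundant member in each library.

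**Figure D1:**
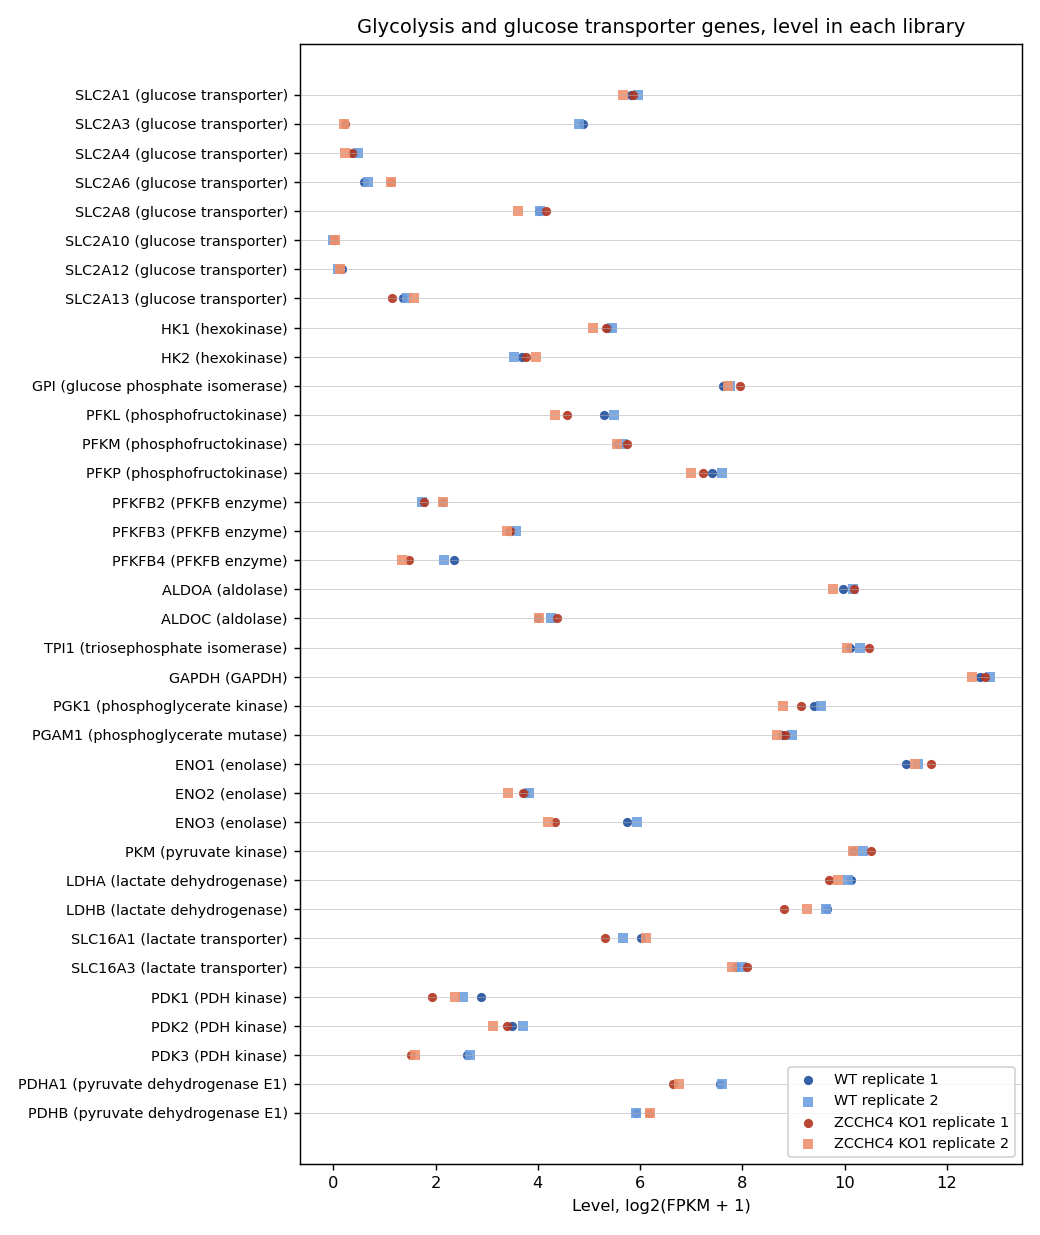
Level of each of the 36 members in each library, with log2(FPKM + 1) on the x axis and the genes by step on the y axis. Circles mark replicate 1 and squares replicate 2, blue WT and red ZCCHC4 KO1. SLC2A3 is near 5 in both WT libraries and near 0 in both ZCCHC4 KO1 libraries, while most genes of the main chain lie together.

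SLC2A3, which encodes the high-affinity glucose transporter GLUT3, showed the widest difference of the 33 tested members. Its 2 WT libraries were at 28.43 and 26.82 FPKM and its 2 ZCCHC4 KO1 libraries at 0.17 and 0.15 FPKM. The gene was thus well above the filter in WT and close to the lowest values listed in ZCCHC4 KO1, with no overlap. The mean fell from 27.6 ± 1.14 FPKM (SD, n = 2) to 0.16 ± 0.014 (SD, n = 2), and the log2 difference was -4.62 (SE 0.187, limma adjusted p = 0.000646). SLC2A3 occupies bases 7919230 to 7936187 of chromosome 12 (GRCh38, minus strand). SLC2A14 is a near-identical copy of SLC2A3, and 24.7% of the 50-base stretches of the main SLC2A3 transcript occur in transcripts of other genes, most of them in SLC2A14. SLC2A14 was at 0.04 and 0.06 FPKM in WT against 0 and 0.08 FPKM in ZCCHC4 KO1. The sum of SLC2A3 and SLC2A14 was 28.47 and 26.88 FPKM in WT against 0.17 and 0.23 FPKM in ZCCHC4 KO1. The assignment of shared reads was not tested. The 20 tested genes nearest to SLC2A3 that were not members had a median log2 difference of -0.42, from -1.25 to 0.09, and 17 of them were lower in ZCCHC4 KO1.

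SLC2A1, which encodes GLUT1, the basal glucose transporter of most dividing cells, was the most abundant transporter. Its FPKM was 55.68 and 61.00 in WT against 57.15 and 49.55 in ZCCHC4 KO1. The groups overlapped, and the log2 difference was -0.13 (95% interval -0.48 to 0.22). SLC2A8, which encodes GLUT8, a transporter of internal membranes, was at 15.28 and 15.46 FPKM in WT against 16.79 and 11.31 in ZCCHC4 KO1. SLC2A6, which encodes the lysosomal GLUT6, was at 0.52 and 0.61 FPKM in WT against 1.20 and 1.18 in ZCCHC4 KO1. Its groups did not overlap, with a log2 difference of 0.49 (limma adjusted p = 0.152), at a level close to the filter. SLC2A13, a myo-inositol transporter, ranged from 1.21 to 2 FPKM with overlapping groups. SLC2A4, which encodes the insulin-responsive GLUT4, ranged from 0.17 to 0.40 FPKM.

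With SLC2A3 near 0, the makeup of the transporter RNA differed between the groups. SLC2A3 held 27.9 and 25.3% of the summed FPKM of the 8 transporters in WT against 0.221 and 0.233% in ZCCHC4 KO1. SLC2A1 held 54.6 and 57.5% in WT against 74.3 and 76.9% in ZCCHC4 KO1. The summed FPKM of the 8 transporters was 101.94 and 106.08 in WT against 76.91 and 64.47 in ZCCHC4 KO1, so a larger SLC2A1 share went with a smaller sum.

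Among the first enzymes of the pathway, PFKL passed the test. HK1, the widely expressed hexokinase, was at 40.26 and 42.65 FPKM in WT against 39.38 and 32.82 in ZCCHC4 KO1. HK2, the hexokinase typical of tumors and muscle, was at 11.89 and 10.52 FPKM in WT against 12.66 and 14.57 in ZCCHC4 KO1. HK1 was lower and HK2 higher in both ZCCHC4 KO1 libraries, with log2 differences of -0.20 (limma adjusted p = 0.505) and 0.26 (adjusted p = 0.458). HK2 held 22.8 and 19.8% of the summed hexokinase FPKM in WT against 24.3 and 30.7% in ZCCHC4 KO1. GPI, the isomerase that follows, was at 196.26 and 214.44 FPKM in WT against 247.80 and 209.41 in ZCCHC4 KO1, with overlapping groups.

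PFKL encodes the liver subunit of phosphofructokinase. Its FPKM was 38.02 and 43.71 in WT against 22.85 and 19.18 in ZCCHC4 KO1. The groups were apart by more than the range within either, with means of 40.9 ± 4.02 FPKM (SD, n = 2) and 21.0 ± 2.60 (SD, n = 2) and a log2 difference of -0.93 (SE 0.162, limma adjusted p = 0.0337). Without WT replicate 1 the adjusted p was 0.06, and without WT replicate 2 it was 0.208. PFKL lies on chromosome 21 from 44300053 to 44327373 on the plus strand. Its 20 nearest tested genes had a median log2 difference of 0.08, and 1 of them had a lower value than PFKL. The main PFKL transcript shares none of its 50-base stretches with another gene.

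PFKM, the muscle subunit, was at 46.75 and 50.09 FPKM in WT against 52.70 and 45.65 in ZCCHC4 KO1. PFKP, the platelet subunit and the most abundant of the 3, was at 169.65 and 193.06 FPKM in WT against 150.11 and 126.27 in ZCCHC4 KO1. The PFKM groups overlapped, while PFKP was lower in both ZCCHC4 KO1 libraries by -0.39 on the log2 scale (limma adjusted p = 0.199). The 20 tested genes nearest to PFKP on chromosome 10 had a median log2 difference of -0.44. PFKL held 14.9 and 15.2% of the phosphofructokinase FPKM in WT against 10.1 and 10.0% in ZCCHC4 KO1, and PFKM held 18.4 and 17.5% in WT against 23.4 and 23.9% in ZCCHC4 KO1. PFKP held 66.1 to 67.3% in all 4 libraries.

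The PFKFB enzymes set the level of fructose 2,6-bisphosphate, an activator of phosphofructokinase. PFKFB4 was at 4.12 and 3.50 FPKM in WT against 1.79 and 1.54 in ZCCHC4 KO1. Its groups did not overlap, and its log2 difference of -0.85 missed the threshold (SE 0.193, limma adjusted p = 0.0653). PFKFB3, which mostly makes the activator, was at 9.85 and 10.94 FPKM in WT against 10.03 and 9.52 in ZCCHC4 KO1, while the genes nearest to it on chromosome 10 had a median log2 difference of -0.54. PFKFB2 ranged from 2.33 to 3.45 FPKM with overlapping groups. PFKFB4 held 23.7 and 20.9% of the summed PFKFB level in WT against 12.6 and 10.7% in ZCCHC4 KO1.

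None of the most abundant enzymes of the main chain passed the test. GAPDH, which oxidises glyceraldehyde 3-phosphate, was at 6400.04 and 7301.60 FPKM in WT against 6898.57 and 5736.85 FPKM in ZCCHC4 KO1. ENO1, the main enolase, was at 2352.44 and 2757.39 FPKM in WT against 3302.30 and 2656.04 in ZCCHC4 KO1. PKM, pyruvate kinase, was at 1146.96 and 1304.12 FPKM in WT against 1471.74 and 1149.81 in ZCCHC4 KO1. The groups overlapped for all 3, the most abundant members. Their log2 differences were -0.12 for GAPDH (SE 0.242, limma adjusted p = 0.82), 0.22 for ENO1 (SE 0.215, adjusted p = 0.615) and 0.09 for PKM (SE 0.195, adjusted p = 0.838). Under quantile normalization, which sets the highest values of all libraries equal, the GAPDH difference was -0.53 (limma adjusted p = 0.00249) and that of ENO1 turned to -0.08.

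ALDOA, the aldolase of most tissues, ranged from 878.25 to 1164.06 FPKM, and TPI1, triosephosphate isomerase, from 1055.53 to 1415.46, both with overlapping groups. ALDOC, the brain aldolase, ranged from 15.09 to 19.61 FPKM, and PGAM1, phosphoglycerate mutase, from 406.16 to 497.54, also with overlap. PGK1, phosphoglycerate kinase, stood apart from these. Its FPKM was 671.33 and 744.90 in WT against 563.22 and 445.68 in ZCCHC4 KO1. The groups did not overlap, but the log2 difference of -0.50 (SE 0.174, limma adjusted p = 0.165) did not pass. PGK1 is on the long arm of chromosome X, and its 20 nearest tested genes had a median log2 difference of -0.02. Several of these transcripts have many processed copies in the genome. Of the 50-base stretches of the main transcript, 89.5% for ALDOA, 56.8% for PGAM1, 27.3% for TPI1 and 20.4% for GAPDH occur in transcripts of other genes, so these levels depend on how such reads were assigned.

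ENO3, which encodes the muscle enolase, fell. Its FPKM was 52.62 and 60.32 in WT against 19.22 and 17.35 in ZCCHC4 KO1. The gap between the groups was several times the range within either. The means were 56.5 ± 5.44 FPKM (SD, n = 2) and 18.3 ± 1.32 (SD, n = 2), and the log2 difference was -1.57 (SE 0.149, limma adjusted p = 0.0077). ENO3 lies on chromosome 17 from 4948710 to 4957129 on the plus strand. Its 20 nearest tested genes had a median log2 difference of 0.09, from -0.33 to 0.92, and 0 of them had a value as low. ENO2, the neuronal enolase, was at 12.48 and 13.27 FPKM in WT against 12.08 and 9.62 in ZCCHC4 KO1, with a log2 difference of -0.23 (limma adjusted p = 0.528). The 20 tested genes nearest to ENO2 on chromosome 12 had a median log2 difference of -0.30. For TPI1 and GAPDH, on the same chromosome, these medians were -0.30 and -0.29. Because ENO1 held 97.3 to 99.1% of the summed enolase FPKM, ENO3 made up only 2.18 and 2.13% in WT against 0.577 and 0.647% in ZCCHC4 KO1.

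At the lactate step both dehydrogenases were lower in both ZCCHC4 KO1 libraries without passing the test. LDHA, the subunit that favours lactate formation, was at 1113.89 and 1070.89 FPKM in WT against 828.08 and 937.02 in ZCCHC4 KO1. LDHB, the heart subunit, was at 805.27 and 795.43 FPKM in WT against 449.73 and 616.54 in ZCCHC4 KO1. The log2 differences were -0.31 for LDHA (limma adjusted p = 0.314) and -0.60 for LDHB (adjusted p = 0.137), and the LDHB libraries of ZCCHC4 KO1 were far apart. The ratio of LDHA to LDHB was 1.38 and 1.35 in WT against 1.84 and 1.52 in ZCCHC4 KO1. The 20 tested genes nearest to LDHB on chromosome 12 had a median log2 difference of -0.44, and 73.1% of the 50-base stretches of LDHB occur in transcripts of other genes. SLC16A1, the lactate transporter MCT1, was at 63.91 and 49.85 FPKM in WT against 39.02 and 68.73 in ZCCHC4 KO1. SLC16A3, the exporter MCT4, was at 233.02 and 253.41 FPKM in WT against 272.18 and 221.83 in ZCCHC4 KO1. For both transporters the spread within ZCCHC4 KO1 was wider than the difference between the group means.

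Where pyruvate enters the mitochondrion, PDHA1 and PDK3 fell. PDHA1 encodes the E1 alpha subunit of pyruvate dehydrogenase, the subunit that PDK kinases phosphorylate. Its FPKM was 189.09 and 192.10 in WT against 98.66 and 107.63 in ZCCHC4 KO1. The replicates were close and the groups far apart, with means of 190.6 ± 2.13 FPKM (SD, n = 2) and 103.1 ± 6.34 (SD, n = 2) and a log2 difference of -0.88 (SE 0.125, limma adjusted p = 0.0198). Without WT replicate 1 the adjusted p was 0.0826, and without WT replicate 2 it was 0.0902. PDHB, the E1 beta subunit, was at 59.27 and 59.16 FPKM in WT against 70.74 and 72.49 in ZCCHC4 KO1. Its log2 difference of 0.27 (SE 0.122, limma adjusted p = 0.264) did not pass, although the groups were apart. The ratio of PDHA1 to PDHB, 2 subunits that assemble in equal number, was 3.19 and 3.25 in WT against 1.39 and 1.48 in ZCCHC4 KO1.

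PDK3, an inhibitory kinase of the complex, was at 5.10 and 5.42 FPKM in WT against 1.87 and 2.01 in ZCCHC4 KO1. The log2 difference was -1.09 (SE 0.186, limma adjusted p = 0.0319). The call was lost with adjusted p-values of 0.142 without WT replicate 1, 0.127 without WT replicate 2 and 0.0567 when ZCCHC4 KO1 replicate 1 was left out, and with the replicate number as a block it was 0.11. PDK1, the kinase known to respond to hypoxia, was at 6.42 and 4.83 FPKM in WT against 2.83 and 4.20 in ZCCHC4 KO1. PDK2, the kinase of widest expression, was at 10.32 and 12.14 FPKM in WT against 9.55 and 7.76 in ZCCHC4 KO1. Both were lower in both ZCCHC4 KO1 libraries, with log2 differences of -0.56 (limma adjusted p = 0.255) and -0.34 (adjusted p = 0.373). PDK3 held 23.4 and 24.2% of the FPKM of the 3 kinases in WT against 13.1 and 14.4% in ZCCHC4 KO1, and their sum was 21.84 and 22.39 in WT against 14.25 and 13.97 in ZCCHC4 KO1.

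PDHA1 and PDK3 lie on the short arm of chromosome X, PDHA1 from 19343927 to 19361718 and PDK3 from 24465286 to 24550466, where the neighbouring genes were lower as well. All 20 tested genes nearest to PDHA1 were lower in ZCCHC4 KO1, with a median log2 difference of -0.73, from -1.28 to -0.26, and 7 of them had a lower value than PDHA1. All 20 nearest to PDK3 were lower too, with a median of -0.87, from -1.49 to -0.34, and 6 had a lower value than PDK3. The neighbours of PDHA1 spanned 15738270 to 21994837 and those of PDK3 18239313 to 30731462. These spans overlap, so the sets of neighbours are not separate observations. Both members thus lay inside the range of their neighbours, whereas SLC2A3 and ENO3 lay below every one of theirs and PFKL below all but 1. The part of the region in the fall of PDHA1 and PDK3 was not tested. Leaving PDHA1 and PDK3 out of the count, with no new fit, left 3 members that fell at an adjusted p below 0.05. The span of PDHA1 meets that of MAP3K15 on the other strand over 1660 bases, and MAP3K15 was at 1.87 and 1.77 FPKM in WT against 1.16 and 1.29 in ZCCHC4 KO1.

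**Figure D2:**
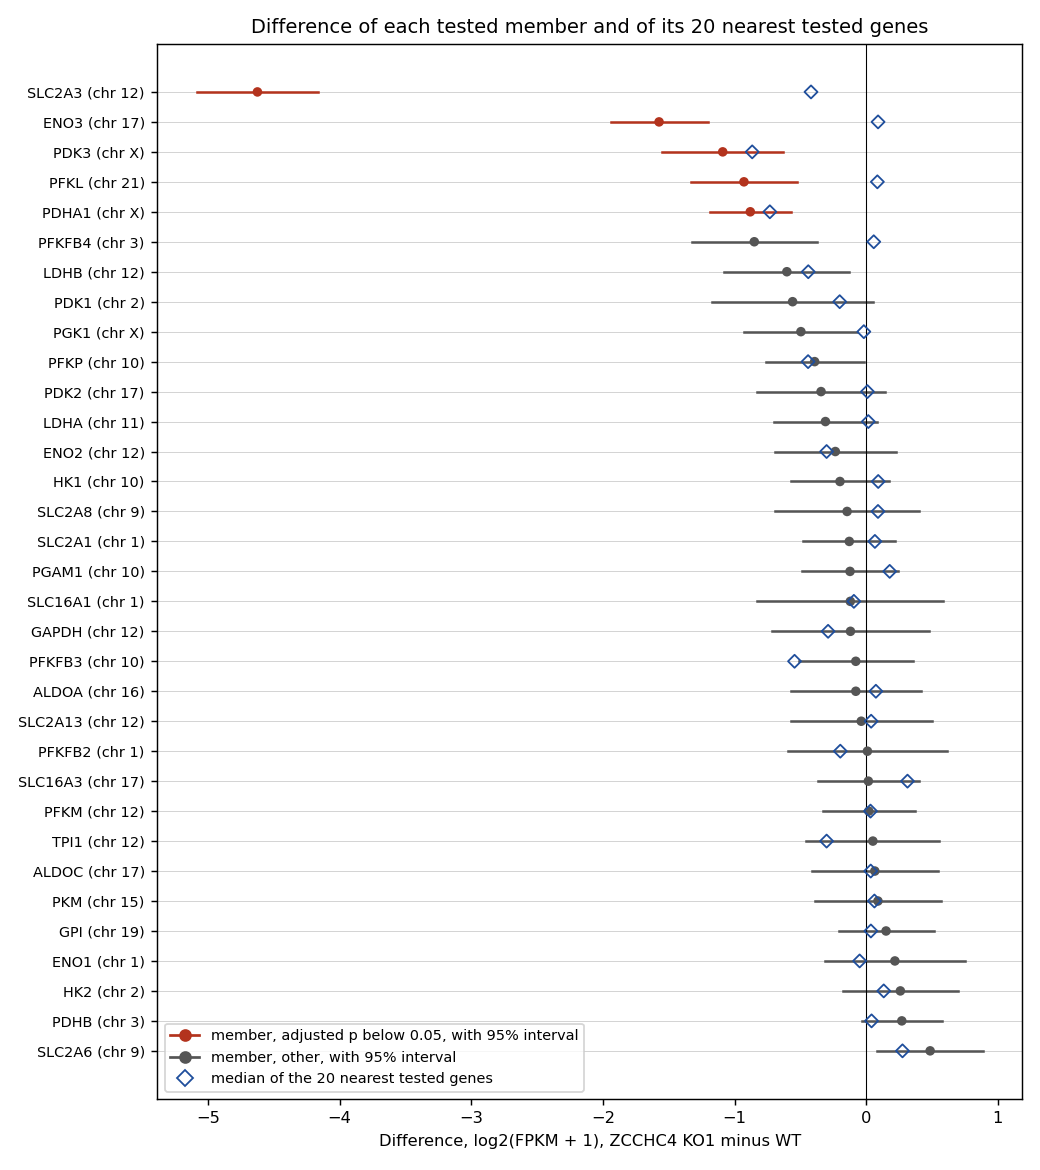
Log2 difference of each of the 33 tested members on log2(FPKM + 1), ZCCHC4 KO1 minus WT, as points with 95% intervals, with open diamonds at the median of the 20 nearest tested genes that were not members. The diamonds of PDHA1 and PDK3, at -0.73 and -0.87, lie within the intervals of these genes, while those of SLC2A3, ENO3 and PFKL lie to the right of theirs.

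The start regions of the members that fell are shown so that their letters can be compared. RefSeq start windows of 300 bases on GRCh38.p14 were found for 32 of the 36 members, and none for SLC2A3, SLC2A4, PFKFB2 and SLC16A1. Capitals mark ACGTG and GCGTG on either strand, the core letters bound by hypoxia-inducible factors, and ACGTG is also part of the E-box CACGTG read by MYC and the MLX partners. The windows lie at chr21:44299803-44300102 for PFKL, chrX:19343677-19343976 for PDHA1, chrX:24465036-24465335 for PDK3 and chr17:4950302-4950601 for the first of 2 ENO3 windows, all on the plus strand. Both ENO3 windows lie inside the span of the gene, downstream of its first base at 4948710.
PFKL: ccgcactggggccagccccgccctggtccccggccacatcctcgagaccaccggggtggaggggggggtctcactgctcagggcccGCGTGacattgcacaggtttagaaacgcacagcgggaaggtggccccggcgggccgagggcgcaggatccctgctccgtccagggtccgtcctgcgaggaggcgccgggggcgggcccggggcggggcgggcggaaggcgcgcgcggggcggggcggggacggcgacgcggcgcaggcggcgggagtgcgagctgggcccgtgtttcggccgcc
PDHA1: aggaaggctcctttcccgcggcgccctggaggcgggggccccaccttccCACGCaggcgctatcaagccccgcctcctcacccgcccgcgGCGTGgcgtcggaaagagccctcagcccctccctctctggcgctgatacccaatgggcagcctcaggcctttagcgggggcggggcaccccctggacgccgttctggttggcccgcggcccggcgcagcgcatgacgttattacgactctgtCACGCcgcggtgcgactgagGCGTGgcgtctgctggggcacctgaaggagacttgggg
PDK3: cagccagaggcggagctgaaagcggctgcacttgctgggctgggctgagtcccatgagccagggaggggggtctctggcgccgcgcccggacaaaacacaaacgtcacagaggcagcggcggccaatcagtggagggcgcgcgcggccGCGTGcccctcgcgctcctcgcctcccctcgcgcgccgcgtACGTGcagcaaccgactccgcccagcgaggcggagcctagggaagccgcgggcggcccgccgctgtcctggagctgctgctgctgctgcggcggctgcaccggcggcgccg
ENO3: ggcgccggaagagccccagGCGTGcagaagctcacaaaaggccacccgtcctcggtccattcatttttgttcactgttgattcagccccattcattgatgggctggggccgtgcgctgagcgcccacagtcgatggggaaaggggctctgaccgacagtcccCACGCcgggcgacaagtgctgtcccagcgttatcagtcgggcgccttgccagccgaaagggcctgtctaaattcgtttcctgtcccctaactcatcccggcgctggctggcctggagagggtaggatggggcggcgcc
The PFKL window held 1 core, the PDHA1 window 4, the PDK3 window 2 and the ENO3 window 2, while the second ENO3 window held 0. Over all members, 39 of 61 windows held a core, or 63.9%, against 48.4% of the 34943 windows of all genes. Of the 32 members with a window, 29 held a core in at least 1 of their windows, or 90.6%, against 52.4% of the 27167 genes with a window, which had fewer windows per gene than the members. Those 27167 genes were not limited to the 10726 tested ones, and the windows were not matched for GC content. LDHA, HK2 and PDHB held up to 6 in a window, and PGAM1, SLC2A8 and SLC2A12 held none. Cores were thus found in start windows of members that fell and of members that did not, such as GAPDH with 2 and ENO1 with 2. A match of letters is a description and no measure of binding.

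Of 82 other genes of glucose handling on a list written from knowledge of the pathway, 77 were listed and 50 tested. At an adjusted p below 0.05, 2 rose, MPC1 among them, and 0 fell, and at an unadjusted p below 0.05 limma gave 10 higher and 5 lower of the 50, that is 20% and 10%, against 8.96% and 13.9% of all tested genes. The median log2 difference of the 50 was 0.05. MPC1, a subunit of the carrier that takes pyruvate into mitochondria, was at 6.79 and 6.89 FPKM in WT against 13.02 and 16.46 in ZCCHC4 KO1, a log2 difference of 0.997 (SE 0.193, limma adjusted p = 0.0445). Its call was lost without WT replicate 1 (adjusted p = 0.224), without WT replicate 2 (adjusted p = 0.203) and with the replicate number as a block (adjusted p = 0.128). Its partner MPC2 was at 53.71 and 53.88 FPKM in WT against 45.55 and 42.72 in ZCCHC4 KO1, and the other pyruvate dehydrogenase subunits PDHX, DLAT and DLD had overlapping groups.

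Of the regulators of these genes, TXNIP, which restrains glucose uptake, was at 23.82 and 25.22 FPKM in WT against 37.84 and 38.34 in ZCCHC4 KO1. MYC, a transcription factor of glycolytic genes, was at 167.15 and 169.81 FPKM in WT against 221.42 and 257.77 in ZCCHC4 KO1. Neither passed the test (limma adjusted p = 0.0596 and 0.0985), although the groups were apart for both. HIF1A, the oxygen-sensitive activator of glycolytic genes, was at 61.04 and 27.21 FPKM in WT against 38.14 and 70.77 in ZCCHC4 KO1, so its spread within each group exceeded the difference between the means. PDK4, the kinase that rises in fasting, was at 2.61 and 1.49 FPKM in WT against 0.53 and 0.99 in ZCCHC4 KO1, a log2 difference of -0.78 (limma adjusted p = 0.145). Some genes of liver glucose metabolism were near 0 and others were not. PFKFB1, FBP1, PCK1 and G6PC1 were at 0.23 FPKM or less in all 4 libraries. PYGL, the liver glycogen phosphorylase, was at 55.13 and 51.81 FPKM in WT against 46.41 and 54.73 in ZCCHC4 KO1. G6PC3 was at 84.05 and 84.90 FPKM in WT against 74.34 and 61.34 in ZCCHC4 KO1. For SLC37A4 the values were 18.17 and 19.22 FPKM in WT against 13.81 and 12.54 in ZCCHC4 KO1.

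Replicates differed with transcript GC content, and the members were richer in GC than most genes. The median GC content was 53.9% over the 33 tested members and 48.7% over all tested genes. Of these members, 24 were higher in WT replicate 2 than in WT replicate 1, and 23 were lower in ZCCHC4 KO1 replicate 2 than in ZCCHC4 KO1 replicate 1, with median log2 differences of 0.10 and -0.20. Of all tested genes, 47.7% and 40.5% did so. With the trend on GC content removed from each library, 8 members fell and 1, PDHB, rose at an adjusted p below 0.05, while the shares of all tested genes called lower and higher were 13.5% and 8.01%, against 4.48% and 1.5% without this removal. The additional members that fell were PFKP (log2 difference -0.49, limma adjusted p = 0.0042), LDHB (-0.49, adjusted p = 0.011) and PFKFB4 (-0.93, adjusted p = 0.014), and PDHB was at 0.38 (adjusted p = 0.027).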

How the data were processed

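RNA-seq was performed on 2 WT and 2 ZCCHC4 KO1 libraries of cells labelled HepG2. Total RNA was extracted with TRIzol. The authors used Bowtie2 for alignment to GRCh38 and RSEM for quantification, and the deposited FPKM values have 2 decimals and Entrez identifiers. Tool versions, annotation and strand are not given in the sources used here, the supplement names the BGISEQ-500 platform and the labels an Illumina HiSeq. A count model cannot be applied to FPKM, depth is unknown and precision rests on 2 libraries per group. A RefSeq symbol was found for 16384 of 16658 genes. The members and gene lists were chosen with earlier results of these data known.

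Genes with an FPKM of 1 or more in at least 2 libraries were tested on the scale log2(FPKM + 1). The tool was limma 3.58.1 under R 4.3.3 (lmFit, eBayes with a trend, 2 residual degrees of freedom, Benjamini-Hochberg adjustment). Calls were made at an adjusted p below 0.05, and at 0.001 with a 2-fold change. All members were named, with standard error and adjusted p for called members and the 3 most abundant ones, and, of the other pathway genes, the called ones with SLC2A14, PDK4, TXNIP, HIF1A and MYC. Others were named after their values were seen. Some genes of the pathway list are not reported here. An exact permutation test of 2 against 2 libraries cannot go below a two-sided p of 0.333, so none was used. Neighbours were the 20 tested genes, members left out, nearest in position. Shared sequence was counted over 50-base stretches of GENCODE v44 transcripts. The fit was also run on simulated data with independent noise. That noise lacked the GC trend between replicates seen here, so no conclusion is drawn from it. Alternatives were a pseudocount of 0.1, no filter, a minimum FPKM of 5, median-ratio scaling, quantile normalization, removal of the GC trend (natural spline, 4 degrees of freedom), eBayes with no trend, a replicate block and leaving out each library. A crossed pairing and the count without PDHA1 and PDK3, which was made with no new fit, were chosen after seeing the data.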

Additional observations from a re-analysis of the deposited data

How the results depend on the processing

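SLC2A3 and ENO3 fell at an adjusted p below 0.05 in limma under all 13 alternatives. PFKL was lost with no filter (adjusted p = 0.0715), PDK3 with no filter (0.085), and both, like PDHA1, without either WT library. The median log2 difference of the tested members lay between -0.23 and -0.07 without each library. At an adjusted p below 0.001 with a 2-fold change, the count of members that fell, 1 in the report, was 0 with no filter, 2 with median-ratio scaling, quantile normalization or the replicate block, 3 with the GC trend removed and 1 to 2 without each library. At an adjusted p below 0.05 the count, 5 in the report, was 3 with no filter, 8 with the GC trend removed (13.5% of all tested genes), 2 to 6 without each library, lowest without WT replicate 1 or 2, and 3 without PDHA1 and PDK3. Members that rose numbered 1 with the GC trend removed (8.01% of all tested genes). Of the other pathway genes, 2 rose in the report, 0 with no filter, 5 with quantile normalization, 9 with the GC trend removed, 1 with the replicate block and 1 to 6 without each library, and 0 fell in the report, 1 with no filter or quantile normalization, 3 with median-ratio scaling, 8 with the GC trend removed and 0 to 1 without each library. ZCCHC4 was at -1.92 with a pseudocount of 0.1 (adjusted p = 0.0551), -1.48 with no filter (0.115) and between -1.81 and -1.15 without each library, losing its call without ZCCHC4 KO1 replicate 1. What caused these differences between settings was not tested.

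The replicate numbers do not pair the libraries, since the deviations from the group means of same-numbered libraries had a Pearson correlation of -0.787 across 10726 genes. With the replicate block PDK3 (adjusted p = 0.11) and MPC1 (0.128) lost their calls, and no other gene named changed its side of 0.05. With the numbers crossed, 12 members fell and 2 rose at an adjusted p below 0.05, 3 fell at 0.001 with a 2-fold change, and 17 other pathway genes rose and 12 fell, while 27.8% of all tested genes were called lower and 21.5% higher at 0.05.

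Directions turned only in genes that did not pass the test. With median-ratio scaling SLC2A13 was at 0.0037. With quantile normalization SLC2A13 was at 0.043, PFKFB3 at 0.017, ENO1 at -0.078 and SLC16A3 at -0.023, and with the GC trend removed SLC16A3 was at -0.13. Without each library, the log2 difference ranged from -0.41 to 0.12 for SLC2A8, -0.26 to 0.18 for SLC2A13, -0.082 to 0.12 for PFKM, -0.20 to 0.22 for PFKFB2, -0.28 to 0.12 for ALDOA, -0.11 to 0.24 for ALDOC, -0.16 to 0.26 for TPI1, -0.25 to 0.013 for GAPDH, -0.089 to 0.27 for PKM, -0.52 to 0.28 for SLC16A1, -0.13 to 0.16 for SLC16A3 and -0.23 to 0.91 for HIF1A, and the share of SLC16A1 in the lactate transporters from -6.44 to 4.67 percentage points. Depth is unknown, so no counting limit can be given.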

Other observations

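Among genes of glycogen and fructose handling, GBE1, the glycogen branching enzyme, was at 25.63 and 20.83 FPKM in WT against 9.52 and 13.60 in ZCCHC4 KO1 (limma adjusted p = 0.069). KHK, the fructose kinase, was at 3.65 and 4.38 FPKM in WT against 2.16 and 1.32 in ZCCHC4 KO1 (limma adjusted p = 0.0892). PYGB, the brain glycogen phosphorylase, was at 22.94 and 27.24 FPKM in WT against 39.52 and 30.86 in ZCCHC4 KO1 (limma adjusted p = 0.205). MLX, the partner of the glucose-sensing factors, was at 65.33 and 67.50 FPKM in WT against 100.84 and 92.25 in ZCCHC4 KO1 (limma adjusted p = 0.073). The groups did not overlap for these genes, none passed the test, and they were chosen after their values were seen.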
